A study of Mus musculus with 2 samples.

Results

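The genes of antigen presentation were followed across the epithelial, stromal and immune cells of prostate tumours from transgenic mice. The set was taken by name, as every feature whose symbol starts with H2- (the mouse major histocompatibility complex, MHC) together with B2m, Cd74, Ciita, Nlrc5, Tap1, Tap2, Tapbp, Tapbpl and Erap1. The rule used names only, but it was set with earlier results of these data known. It held 43 of the 28000 features. These were 24 class I heavy chains, the class I light chain B2m, 5 genes of class I peptide supply, the class I regulator Nlrc5, 4 class II chains, 6 genes of class II peptide loading, the class II regulator Ciita, and H2-Ke6, an enzyme of fatty acid metabolism that carries an H2- name only by its position. Of the 43, 29 members reached 20 counts per 1000000 (CPM) in at least 1 cell class. A further 6, all of them H2-M genes, had no count in either library, 5 had 1 to 100 counts over both libraries together, and H2-Q1, H2-Q2 and H2-T24 lay between.

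Single-cell RNA-seq with 10x Genomics 3′ chemistry had been done on 1 tumour library per genotype. The DoubleTg library, labelled Prostatic adenocarcinoma, had the genotype hHGFtg, H11 hMET/+, PB Cre4, and the TripleTg library, labelled Prostatic carcinoma, had the allele Ctnnb1 L(Ex3)/+ in addition. Both genotypes therefore shared a human HGF transgene, a human MET transgene at the H11 locus that is switched on by Cre recombination, and Cre under the probasin promoter, which acts in prostate epithelium and not in stroma or leukocytes. Recombination of the Ctnnb1 allele removes exon 3 and leaves a stabilised β-catenin in the same epithelial cells. The ages of the mice behind the libraries, the number of animals in each and the H2 haplotype of each were not given in the sources used here. The colony was mixed from C57BL/6 and C3H SCID stock and the MET line had been made in FVB zygotes, strains that differ in H2 haplotype, so genotype and H2 haplotype cannot be told apart in any comparison between the libraries.

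Class I molecules sit on nearly all nucleated cells, where a heavy chain paired with β2-microglobulin (B2m) holds a peptide from the cell's own proteins for CD8 T cells. The peptides are cut by the proteasome, carried into the endoplasmic reticulum by the transporter Tap1 and Tap2, trimmed by Erap1 and loaded with the help of tapasin (Tapbp) and its relative Tapbpl, while Nlrc5 drives transcription of the class I genes. Class II molecules belong to dendritic cells, macrophages and B cells, where an α and a β chain assemble with the invariant chain Cd74 and exchange it in endosomes for a peptide with the help of H2-DM, which is held in check by H2-O, all under the control of the transactivator Ciita. Interferon can raise both systems, also in epithelium.

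After the limits of the study on genes per cell and mitochondrial counts, 10598 of 12072 DoubleTg cells and all 9492 TripleTg cells were kept, with 256880958 and 229655259 unique molecular identifiers (UMIs, counts of single captured RNA molecules) and medians of 16761 and 20097 UMIs per cell, and 29 barcodes occurred in both. Clusters were made in each library without the 43 members and named from other markers, so that member levels did not shape the classes. The epithelial-like cells numbered 6996 in DoubleTg and 6663 in TripleTg, the stromal-like cells 1294 and 973, and the immune-like cells 1031 and 608. The immune-like cells were not alike in make-up, since 438 T and NK-like cells were named only in DoubleTg, whereas the TripleTg cluster led by Cd3g and Nkg7 (142 cells) also carried epithelial transcripts and stayed unnamed, so macrophage-like and dendritic-like cells are given apart. Epithelial RNA was counted in the other classes of both libraries, and whether it was free RNA or came from doublets was not tested. The summed level of 8 epithelial markers in stromal-like cells was 23% of that in epithelial-like cells in DoubleTg and 26.7% in TripleTg, and in immune-like cells it was 24.7% and 26.8%. These shares are pooled over cells and lie above those of a median cell. In cells thinned to equal depth, the median marker count in DoubleTg was 2 UMIs in stromal-like, 3 in immune-like and 82 in epithelial-like cells. In TripleTg it was 5, 6 and 83. Because of this epithelial RNA, the class I sums and some other values outside the epithelium are also given after subtraction. The epithelial-like profile of the same library, scaled by the pooled markers, was subtracted, a step chosen after the data had been seen.

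The 34 members with an H2- symbol lay on chromosome 17 between bases 33996017 and 37483552 (GRCm38), with H2-K1 at 33996017 to 34000347 on the minus strand, H2-D1 at 35262730 to 35267499, H2-Q6 at 35424850 to 35430055 and H2-Q7 at 35439155 to 35443773 on the plus strand. B2m stands apart from the complex, on chromosome 2 at 122147686 to 122153083. Promoter windows of 4 class I genes and 2 class II genes are shown because the comparisons between cell classes and libraries turn on these genes. They are from RefSeq (GRCm38.p6), are written 5′ to 3′ on the strand of the gene and hold no annotated exon. The capitals mark GGATTCC, letters of the class I enhancer, ATTGG, the inverted CCAAT box, and in B2m a match to the letters of an interferon-response element, GAAA, any 2 bases and GAAA.

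H2-K1, chr17:34000353-34000472, minus strand: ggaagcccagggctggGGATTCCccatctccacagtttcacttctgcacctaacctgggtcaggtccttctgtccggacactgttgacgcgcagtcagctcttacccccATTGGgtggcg

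H2-Q6, chr17:35424663-35424781, plus strand: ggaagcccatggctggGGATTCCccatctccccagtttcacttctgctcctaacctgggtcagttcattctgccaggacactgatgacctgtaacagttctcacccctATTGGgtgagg

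H2-Q7, chr17:35439008-35439125, plus strand: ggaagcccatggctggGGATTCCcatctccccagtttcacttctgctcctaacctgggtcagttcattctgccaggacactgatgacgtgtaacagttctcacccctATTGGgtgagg

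B2m, chr2:122147532-122147644, plus strand: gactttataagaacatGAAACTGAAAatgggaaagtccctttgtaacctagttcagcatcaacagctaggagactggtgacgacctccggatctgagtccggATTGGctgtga

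H2-Aa, chr17:34287861-34287933, minus strand: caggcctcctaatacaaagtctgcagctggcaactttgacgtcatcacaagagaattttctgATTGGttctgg

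H2-Eb1, chr17:34305747-34305818, plus strand: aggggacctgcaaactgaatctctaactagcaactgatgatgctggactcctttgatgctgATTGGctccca

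Over the 250 bases before the start, searched on both strands, CCAAT was found in 19 of the 22 class I heavy chain promoters that had an entry and in 8 of 8 class II chain and loading promoters, against 33.85% of 32851 mouse promoters. GGATTCC was found in 5 of the 22 class I promoters (H2-D1, H2-K1, H2-M5, H2-Q6 and H2-Q7) and in 0 of 8 class II promoters, against 3.169% of all promoters. The interferon-response letters were found in B2m, H2-T22 and H2-T23, against 2.977% of all promoters. These matches describe letters in the reference and not bound sites.

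Class I heavy chains were read in every cell class, and in DoubleTg their level was highest in lymphocytes and vessels. The summed level of the 24 heavy chains in DoubleTg was 6108 CPM in T and NK-like cells, 5105 CPM in endothelial-like cells, 4169 CPM in macrophage-like cells and 3881 CPM in dendritic-like cells. It was 2852 CPM in fibroblast-like cells, 2686 CPM in luminal-like cells, 2537 CPM in seminal vesicle-like cells, 2219 CPM in smooth muscle and pericyte-like cells and 1125 CPM in basal-like cells. In TripleTg the sum ran from 705 CPM in basal-like and 1068 CPM in luminal-like cells through 1590 CPM in smooth muscle and pericyte-like, 1613 CPM in seminal vesicle-like and 1707 CPM in fibroblast-like cells to 2607 CPM in endothelial-like, 2710 CPM in dendritic-like and 2755 CPM in macrophage-like cells. The order of the classes was thus close in both libraries, with basal-like cells lowest and endothelial-like and immune classes highest. Neighbours in this order whose counting intervals met were, in TripleTg, the smooth muscle and pericyte-like and seminal vesicle-like cells, the endothelial-like and dendritic-like cells, and the dendritic-like and macrophage-like cells (log2 ratio −0.02, 95% interval −0.10 to 0.05). With a single library per genotype no test between genotypes is possible, and all intervals here cover counting error only, not the spread between animals.

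**Figure D1:**
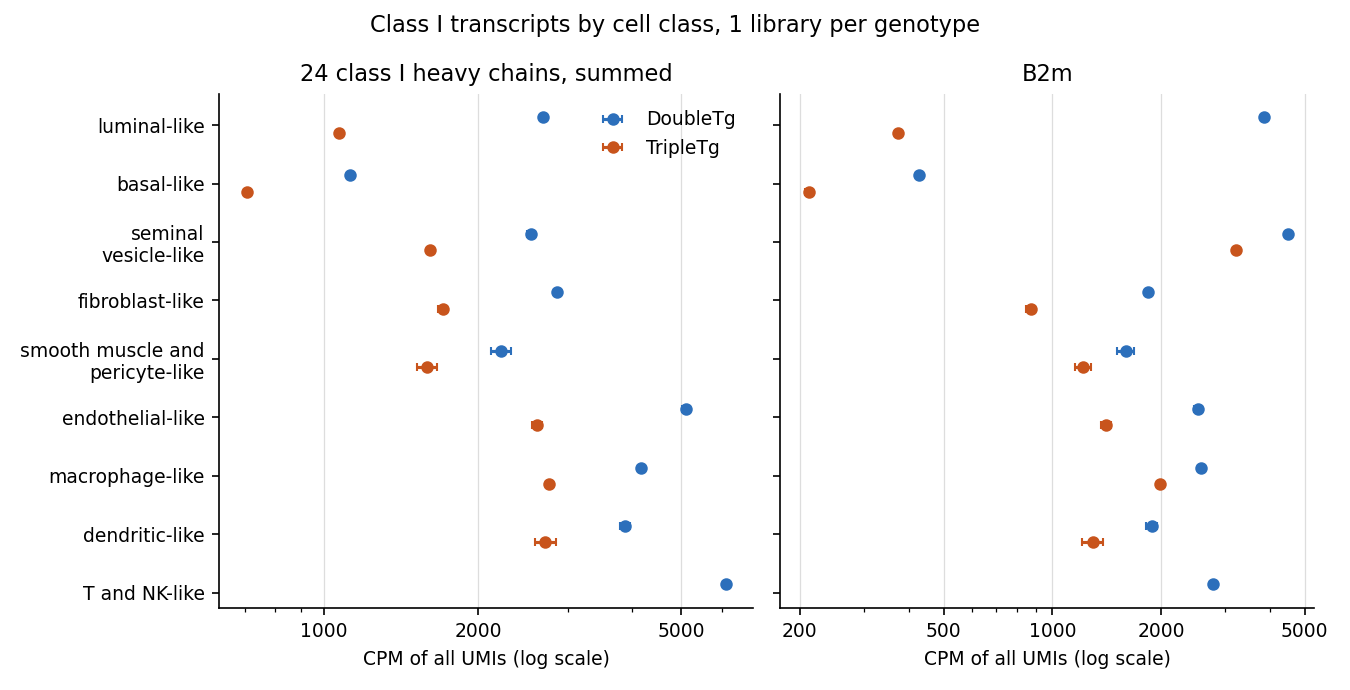
Levels in CPM (log scale, horizontal axis) of the summed class I heavy chains (left) and of B2m (right) in each cell class of the DoubleTg and TripleTg libraries, with exact 95% Poisson intervals as bars. The TripleTg points of the heavy chain sum lie to the left of the DoubleTg points in all 8 classes drawn for both, and the widest gap in the B2m panel is in luminal-like cells, from 3849 to 373 CPM.

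Immune-like cells had more class I heavy chain RNA than epithelial-like cells in both libraries, by 0.94 on the log2 scale in DoubleTg (4808 against 2501 CPM, 0.93 to 0.96) and by 1.34 in TripleTg (2751 against 1088 CPM, 1.32 to 1.36). With the T and NK-like cells left out, the DoubleTg difference was 0.71.

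Between the libraries, class I transcripts were lower in TripleTg, and most so in the luminal-like cells. The heavy chain sum was 2686 CPM in DoubleTg and 1068 CPM in TripleTg luminal-like cells, a log2 ratio of −1.33 (−1.34 to −1.32). Over all epithelial-like cells it was 2501 and 1088 CPM, a log2 ratio of −1.20 (−1.21 to −1.19). In the basal-like cells, the other epithelial layer, the sum was 1125 and 705 CPM, a log2 ratio of −0.67 (−0.70 to −0.65). The difference was thus larger in luminal-like than in basal-like cells, with intervals that did not meet. The seminal vesicle-like cells had 2537 and 1613 CPM (−0.65, −0.68 to −0.62), where the median of all features was shifted by −0.47 and scaling by TMM factors, which set the bulk of features level between the libraries, left −0.14. This class joined unlike clusters in TripleTg, 143 cells led by Sva with 379 CPM and 417 cells led by Crisp1 with 2099 CPM.

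Among the 18 members with at least 10 CPM in epithelial-like cells of either library, 7 were at least 2-fold lower in TripleTg and 0 were at least 2-fold higher, where 10.9% and 9.18% of the 7398 features measured at that level were. The median log2 ratio of these members was −0.87, against −0.10 over all features. In luminal-like cells 9 of 19 members were at least 2-fold lower, 8 of them among the 14 class I members, and 0 were higher, against 11.4% and 11.0% of all features. All 14 class I members measured there lay below 0. In basal-like cells 3 of 16 members were lower, all of class I, and 4 higher, all of class II, against 13.4% and 13.3% of all features. With TMM scaling B2m was no longer past 2-fold there. In seminal vesicle-like cells 4 of 18 were lower and 4 higher, against 17.4% and 3.84%, and with TMM scaling 2 were lower and 4 higher, against 5.76% and 7.02%.

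B2m, the light chain that class I heavy chains need to reach the surface, was 3849 CPM in DoubleTg and 373 CPM in TripleTg luminal-like cells. This was 10.3-fold lower, a log2 ratio of −3.37 (−3.38 to −3.35), and the widest difference of any class I member with at least 10 CPM in that class. The luminal-like class joined unlike clusters in the libraries, led for example by Sbpl, by Msmb and by Prr9 in DoubleTg and by Gm14850, by Apoc4 and by Coch in TripleTg, so cluster make-up and genotype cannot be told apart in this value. In basal-like cells B2m was 428 and 212 CPM, a log2 ratio of −1.02 (−1.06 to −0.97). In the seminal vesicle-like cells it was 4487 and 3220 CPM, a log2 ratio of −0.48 (−0.50 to −0.46). This was the size of the shift of all features there, and with TMM scaling B2m turned to 0.035, H2-K1 to 0.0037 and H2-T23 to 0.31 in these cells. The class was led by Svs2 and Svs5 in DoubleTg, and by Crisp1 or by Sva in TripleTg. B2m UMIs per class I heavy chain UMI were 1.43 in DoubleTg and 0.350 in TripleTg luminal-like cells, so the light chain differed by more than its partners. In macrophage-like cells the same ratio was 0.617 and 0.719. At the level of single luminal-like cells thinned to 5000 UMIs, the median was 13 B2m UMIs (quartiles 6 and 28, 4792 cells) in DoubleTg and 1 (0 and 3, 4765 cells) in TripleTg, and the share of cells with no B2m UMI was 2.02% and 30.2%. The difference was thus seen in most cells of the class and not in a small subset.

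B2m also varied widely within each library. Among the luminal-like clusters of DoubleTg it ran from 497 CPM in a cluster led by Sbpl and Sbp (505 cells) to 6879 CPM in a cluster led by Aldh1a3 and Ly6d and 8726 CPM in a cluster led by Prr9 and Rnase1 (621 cells). The class I heavy chain sums of these 3 clusters were 1146, 3847 and 3015 CPM, so a high B2m level did not go with an equally high heavy chain level. In TripleTg the luminal-like clusters lay between 118 CPM (Fabp4- and Cnfn-led, 544 cells) and 621 CPM (Coch- and Tgm4-led, 1120 cells), apart from 1 cluster at 1559 CPM led by Ifit3, Rsad2 and Ifit1 (173 cells). Genes of that kind are induced by interferon. The corresponding interferon-gene-led cluster of DoubleTg (Ifit3b, Cmpk2 and Ifit3, 122 cells) had 4171 CPM B2m, against the 1559 CPM of its TripleTg counterpart, and the highest heavy chain sum of the luminal-like clusters there, 4546 CPM. In TripleTg, too, the interferon-gene-led cluster was the highest of the luminal-like clusters, with a heavy chain sum of 2607 CPM against 730 to 1875 CPM in the others.

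**Figure D2:**
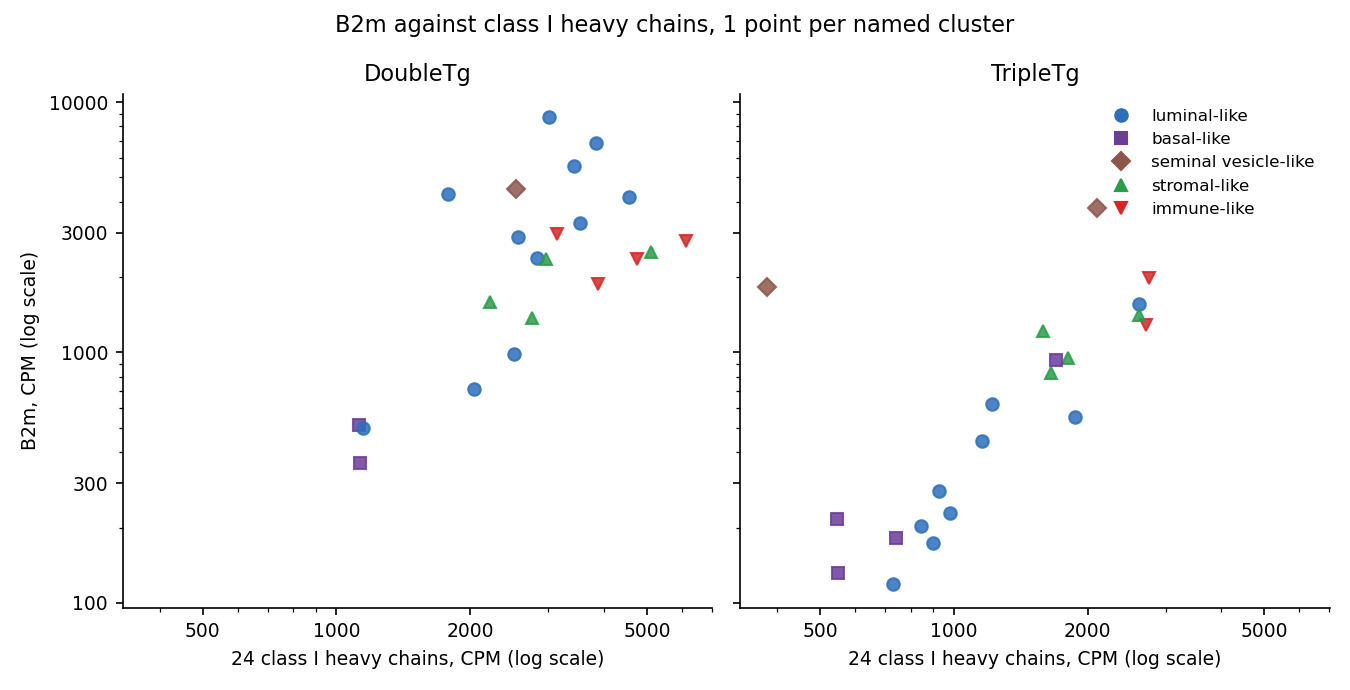
B2m level (CPM, log scale, vertical axis) against the summed level of the 24 class I heavy chains (CPM, log scale, horizontal axis), 1 point per named cluster, DoubleTg left and TripleTg right, with marker shape and colour giving the compartment. The luminal-like clusters of DoubleTg reach 8726 CPM B2m, whereas those of TripleTg stay at or below 1559 CPM.

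The classical heavy chains H2-K1 and H2-D1, which present peptide to CD8 T cells, did not differ alike. H2-K1 was 1362 CPM in DoubleTg and 369 CPM in TripleTg luminal-like cells, a log2 ratio of −1.89 (−1.90 to −1.87). H2-D1 was 929 and 509 CPM in the same cells, a log2 ratio of −0.87 (−0.88 to −0.86). H2-K1 UMIs per H2-D1 UMI were accordingly 1.47 and 0.724. Outside the epithelium the differences were smaller than in luminal-like cells. In endothelial-like cells H2-K1 was 1971 and 887 CPM (−1.15) and H2-D1 1838 and 1321 CPM (−0.48). In smooth muscle and pericyte-like cells the log2 ratios were −0.90 and −0.12. In fibroblast-like cells H2-K1 was 1001 and 557 CPM (−0.85, −0.91 to −0.79) and H2-D1 1276 and 838 CPM (−0.61, −0.66 to −0.56). In macrophage-like cells H2-K1 was 1499 and 1006 CPM (−0.57, −0.62 to −0.53) and H2-D1 1902 and 1457 CPM (−0.38, −0.43 to −0.34). H2-K1 was below H2-D1 in the ratio between libraries in 7 of the 8 classes of over 50 cells named in both, the exception being seminal vesicle-like cells with −0.51 and −0.80. Near-identical heavy chains can share reads, and reads from another haplotype may map less well to the reference allele, so the split among H2-K1, H2-D1 and the H2-Q and H2-T genes is uncertain.

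The class Ib heavy chains, less polymorphic relatives with more restricted expression, held the widest differences outside the epithelium. H2-Q7 and H2-Q6 encode Qa-2 antigens, whose expression is known to vary between inbred strains. H2-Q7 was 176 CPM in DoubleTg and 32.4 CPM in TripleTg macrophage-like cells (−2.44, −2.66 to −2.22), 282 and 75.4 CPM in dendritic-like cells (−1.91, −2.36 to −1.48), 217 and 59.1 CPM in endothelial-like cells (−1.88, −2.15 to −1.61), and 24.8 and 6.11 CPM in luminal-like cells (−2.02, −2.13 to −1.92). H2-Q6 was 112 and 11.1 CPM in macrophage-like cells (−3.33, −3.70 to −2.97), 265 and 28.6 CPM in endothelial-like cells (−3.21, −3.58 to −2.86) and 158 and 37.7 CPM in dendritic-like cells (−2.07, −2.74 to −1.47). Both were highest in the DoubleTg T and NK-like cells, with 567 CPM H2-Q7 and 322 CPM H2-Q6. Their promoter windows, printed above, both hold GGATTCC and the inverted CCAAT box. H2-Q4, another gene of the H2-Q cluster, was 351 and 78.4 CPM in endothelial-like cells (−2.16, −2.39 to −1.94) and 111 and 34.1 CPM in macrophage-like cells (−1.70, −1.93 to −1.47). These differences were about as large after the epithelial-like profile was subtracted, with log2 ratios of −1.50 for H2-Q4, −2.35 for H2-Q6 and −1.60 for H2-Q7 in stromal-like cells (−1.53, −2.41 and −1.65 as counted).

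Of the remaining class Ib genes, H2-T23, which encodes Qa-1, the ligand of CD94 and NKG2 receptors on NK cells, was 247 and 138 CPM in luminal-like cells (−0.84, −0.86 to −0.81), 302 and 129 CPM in endothelial-like cells (−1.22, −1.42 to −1.03), and 74.6 and 80.5 CPM in basal-like cells (0.11, 0.02 to 0.20). H2-T22, a ligand of γδ T cell receptors, was 52.5 and 21.0 CPM in luminal-like cells (−1.32, −1.38 to −1.26) and 43.1 and 33.5 CPM in macrophage-like cells (−0.36, −0.64 to −0.08, and −0.12 after subtraction of the epithelial-like profile). H2-Q10, a secreted class I protein known from liver, was 19.1 and 3.49 CPM in luminal-like cells (−2.45, −2.58 to −2.32) and 25.03 CPM in DoubleTg T and NK-like cells. H2-M3, which presents N-formylated peptides, was 26.4 and 26.2 CPM in macrophage-like cells (−0.01, −0.35 to 0.33) and 34.6 and 30.9 CPM in endothelial-like cells (−0.16, −0.63 to 0.31), intervals that included 0. H2-M2 was read mainly in macrophage-like cells, at 78.0 and 14.3 CPM (−2.45, −2.79 to −2.12). H2-M9 was read in few cells, with 33.8 CPM (29 UMIs in 5 cells) in DoubleTg and 93.7 CPM (105 UMIs in 22 cells) in TripleTg smooth muscle and pericyte-like cells (1.47, 0.87 to 2.12), so its interval, which counts UMIs, understates the error. Every other DoubleTg class had 0 H2-M9 UMIs, and no other TripleTg class of over 50 cells exceeded 0.185 CPM (fibroblast-like cells), so its counts came almost wholly from the clusters led by Rgs5.

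Peptide supply to class I followed the same direction in luminal-like cells. Tap1 was 13.4 and 5.27 CPM (−1.34, −1.46 to −1.23), Tap2 28.2 and 13.1 CPM (−1.11, −1.18 to −1.03), Tapbp 122 and 91.4 CPM (−0.42, −0.45 to −0.39), Tapbpl 14.5 and 9.71 CPM (−0.58, −0.67 to −0.49) and Erap1 14.8 and 9.18 CPM (−0.69, −0.78 to −0.60). All 5 were lower in TripleTg, and the transporter pair was past 2-fold. Tap1 was also about as much lower outside the epithelium, with 89.1 and 39.0 CPM in endothelial-like cells (−1.19, −1.55 to −0.84) and 45.6 and 18.1 CPM in macrophage-like cells (−1.33, −1.66 to −1.01). In dendritic-like cells it was 108 and 81.6 CPM, with an interval that included 0 (−0.41, −0.88 to 0.04). Nlrc5, the class I transactivator, was sparse, with its highest level among classes of over 50 cells in endothelial-like cells, 18.0 CPM (40 UMIs) in DoubleTg and 3.09 CPM (8 UMIs) in TripleTg (−2.54, −3.85 to −1.43). In luminal-like cells it was 0.646 CPM (127 UMIs) and 0.247 CPM (37 UMIs), a log2 ratio of −1.39 (−1.96 to −0.85), both levels far under 10 CPM. The 38 glia-like DoubleTg cells had 35.7 CPM from 7 UMIs (14.4 to 73.6). H2-Ke6, which presents no antigen, was 49.3 and 22.1 CPM in luminal-like cells (−1.16, −1.22 to −1.10), so a member outside the pathway differed there by as much as Tap2.

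In a list of 34 other genes of both pathways, fewer were past 2-fold in epithelial-like and luminal-like cells than among the members. The list also holds interferon, co-stimulation and receptor genes, so its shares do not describe class I genes alone. Of the 20 with at least 10 CPM in epithelial-like cells, 1 was at least 2-fold lower (Calr, the chaperone calreticulin) and 0 were higher, against 10.9% and 9.18% of all features. In luminal-like cells 3 of 20 were lower, a share near the 11.4% of all features. These were the immunoproteasome subunits Psmb8 (90.6 and 41.7 CPM, −1.12, −1.16 to −1.08) and Psmb9 (20.02 and 8.10 CPM, −1.31, −1.40 to −1.21), and Calr (1112 and 501 CPM, −1.15, −1.16 to −1.14). All 3 belong to the class I part of the list, and their ratios were of the size of those of Tap1 and Tap2. Irf1, a direct activator of class I genes, was 16.5 and 24.2 CPM in luminal-like cells (0.55, 0.49 to 0.62).

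The human MET transgene, which is transcribed after Cre recombination, was used to divide the luminal-like cells. Among DoubleTg luminal-like cells of at least 5000 UMIs, B2m was 4835 CPM in 3266 cells with an hMETtg UMI in the thinned counts and 2672 CPM in 1526 cells without, a log2 ratio of 0.86 (0.83 to 0.88). The heavy chain sum was 2988 and 2371 CPM (0.33, 0.31 to 0.36). The split also moved the sum of epithelial markers (0.23, 0.22 to 0.23) and the sum of immune genes with Cd52 (0.65, 0.51 to 0.79), but not that without Cd52 beyond its interval (−0.41, −0.90 to 0.10). An hMETtg UMI was found in 68.2% of these luminal-like cells, against 14.2% of fibroblast-like, 15.6% of endothelial-like and 12.1% of macrophage-like cells, which should lack it, at the same depth. In TripleTg the share in luminal-like cells was 10.4%, between the 1.77% of macrophage-like and the 14.1% of fibroblast-like cells. A UMI there thus did not set luminal-like cells apart from classes that should lack it. The same split in TripleTg (497 cells with and 4268 without) did not show the DoubleTg direction. Its log2 ratio was −0.09 (−0.19 to 0.004) for B2m and −0.09 (−0.15 to −0.03) for the heavy chain sum. Cells without a UMI may still carry the transgene, a UMI may be free RNA, and the split was not separated from the cluster a cell belonged to.

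In the stromal-like cells, class I members were lower in TripleTg by a smaller margin. The heavy chain sum was 3209 and 1948 CPM, a log2 ratio of −0.72 (−0.75 to −0.69). It was 2852 and 1707 CPM in fibroblast-like cells (−0.74, −0.77 to −0.71), 5105 and 2607 CPM in endothelial-like cells (−0.97, −1.01 to −0.93) and 2219 and 1590 CPM in smooth muscle and pericyte-like cells (−0.48, −0.58 to −0.39). Of 21 members measured in stromal-like cells, 4 were at least 2-fold lower (Tap1, H2-Q4, H2-Q6 and H2-Q7) and 2 at least 2-fold higher (H2-Aa and H2-M9), against 4.55% and 6.86% of 8379 features. In endothelial-like cells 8 of 21 members were lower and 0 higher, against 7.36% and 10.9%. In fibroblast-like cells 5 of 21 were lower and 4 higher, against 4.69% and 7.11%, all 5 of class I and all 4 of class II. In smooth muscle and pericyte-like cells, of which there were 79 and 89, 3 of 21 were lower and 6 higher, against 13.4% and 16.3%. Subtraction of the epithelial-like profile left −0.60 for the heavy chain sum in stromal-like, −0.59 in fibroblast-like and −0.98 in endothelial-like cells, but only −0.18 in the smooth muscle and pericyte-like cells. B2m depended more on this step: it was 1948 and 1067 CPM as counted (−0.87, −0.90 to −0.83) and 1494 and 1194 CPM after subtraction (−0.32), and in smooth muscle and pericyte-like cells the log2 ratio moved from −0.39 to 1.27.

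In the immune-like cells 13 of 27 members were at least 2-fold lower in TripleTg and 0 higher, against 9.50% and 9.25% of 7708 features, and the median log2 ratio was −0.97 against −0.03 over all features. These cells differ in make-up, so the count was also taken in single classes. In macrophage-like cells 13 of 26 members were lower and 0 higher (5.98% and 7.97% of all features), 5 of 15 class I members and 8 of 10 class II members. In dendritic-like cells 5 of 26 were lower and 1 higher (6.22% and 16.7%), 4 of 14 class I members lower, and of 11 class II members 0 lower and 1 higher. All features of the dendritic-like cells were shifted by a median of 0.24, and with TMM scaling 6 members were lower and 0 higher (10.8% and 11.8%), H2-Eb1 passing 2-fold (−1.05) and H2-DMb1 falling under it (0.77). The heavy chain sum was 4169 and 2755 CPM in macrophage-like cells (−0.60, −0.63 to −0.57) and 3881 and 2710 CPM in dendritic-like cells (−0.52, −0.60 to −0.44), and after subtraction −0.48 and −0.39. For B2m in macrophage-like cells, 2573 and 1982 CPM as counted (−0.38, −0.41 to −0.34), the direction depended on subtraction, which gave 2274 and 2461 CPM (0.11).

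**Figure D3:**
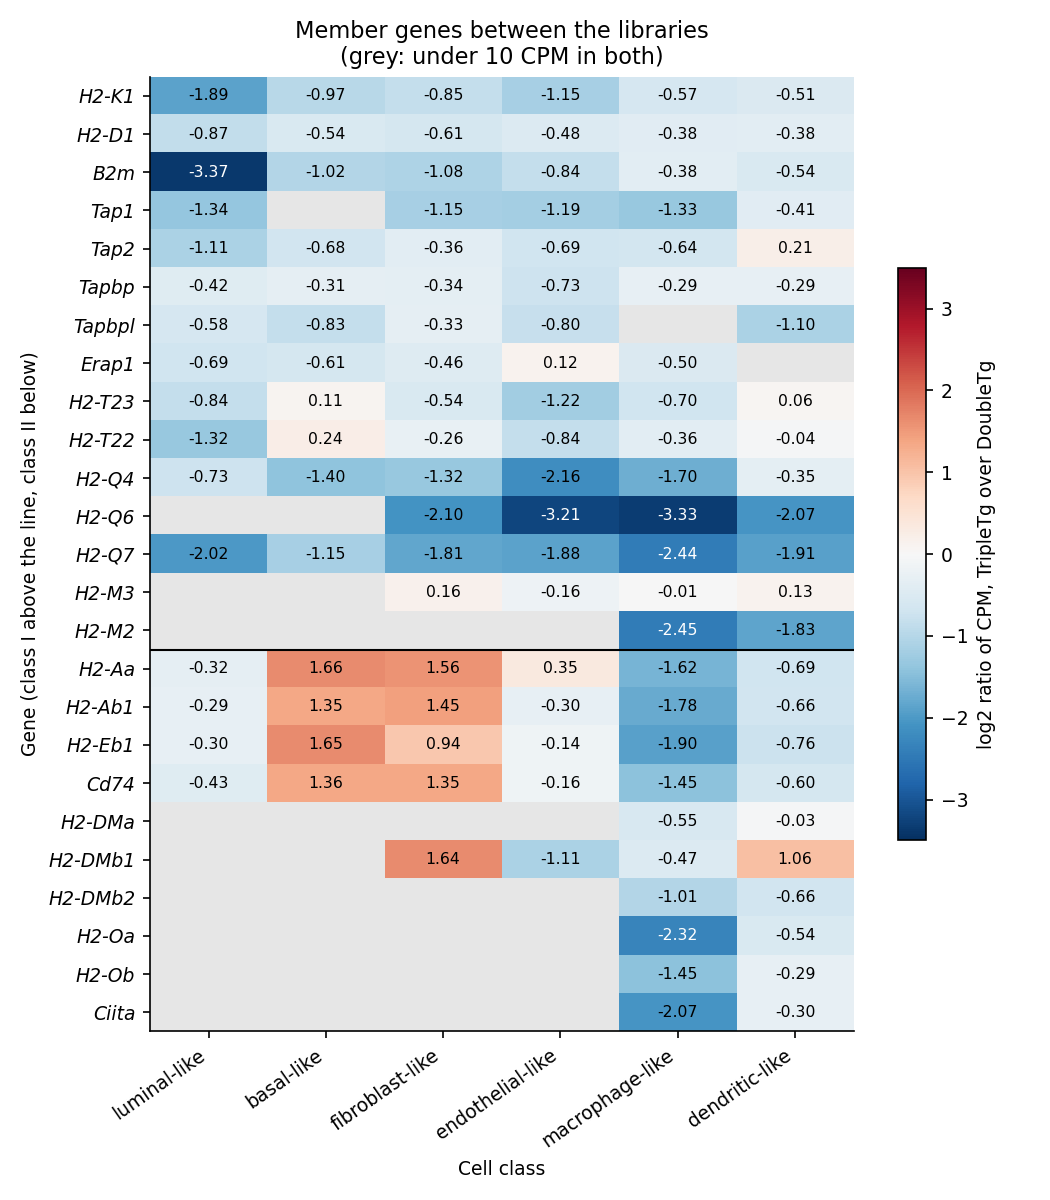
Log2 ratio of CPM, TripleTg over DoubleTg, for selected members (vertical axis) in selected cell classes (horizontal axis), as a colour scale, with grey where both libraries were under 10 CPM. Seminal vesicle-like and smooth muscle and pericyte-like cells are not drawn, nor are Nlrc5, H2-Q10, H2-Ke6 and H2-Eb2. Class I members are mostly on the lower side in every class drawn, with B2m in luminal-like cells at −3.37. H2-Aa, H2-Ab1 and H2-Eb1 are lower in the macrophage-like and dendritic-like columns and higher in basal-like and fibroblast-like cells.

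Class II chains were read mainly in the professional antigen-presenting cells. In DoubleTg the summed level of the 4 class II chains was 38013 CPM in dendritic-like and 28724 CPM in macrophage-like cells, against 135 CPM in endothelial-like, 112 CPM in T and NK-like, 77.0 CPM in fibroblast-like, 55.1 CPM in luminal-like, 27.1 CPM in basal-like and 18.5 CPM in seminal vesicle-like cells. In TripleTg it was 23400 CPM in dendritic-like and 8482 CPM in macrophage-like cells, against 194 CPM in fibroblast-like, 134 CPM in endothelial-like, 78.8 CPM in basal-like, 58.1 CPM in seminal vesicle-like and 44.7 CPM in luminal-like cells. Immune-like cells stood above epithelial-like cells by 8.63 on the log2 scale in DoubleTg (8.60 to 8.65) and by 7.58 in TripleTg (7.55 to 7.61). This was 395-fold and 192-fold, where class I heavy chains differed by 1.92-fold and 2.53-fold between the same cells. The DoubleTg difference was 9.26 without the T and NK-like cells, which were named only in that library, and 9.49 when epithelial-like cells with more than 1 immune UMI were left out.

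**Figure D4:**
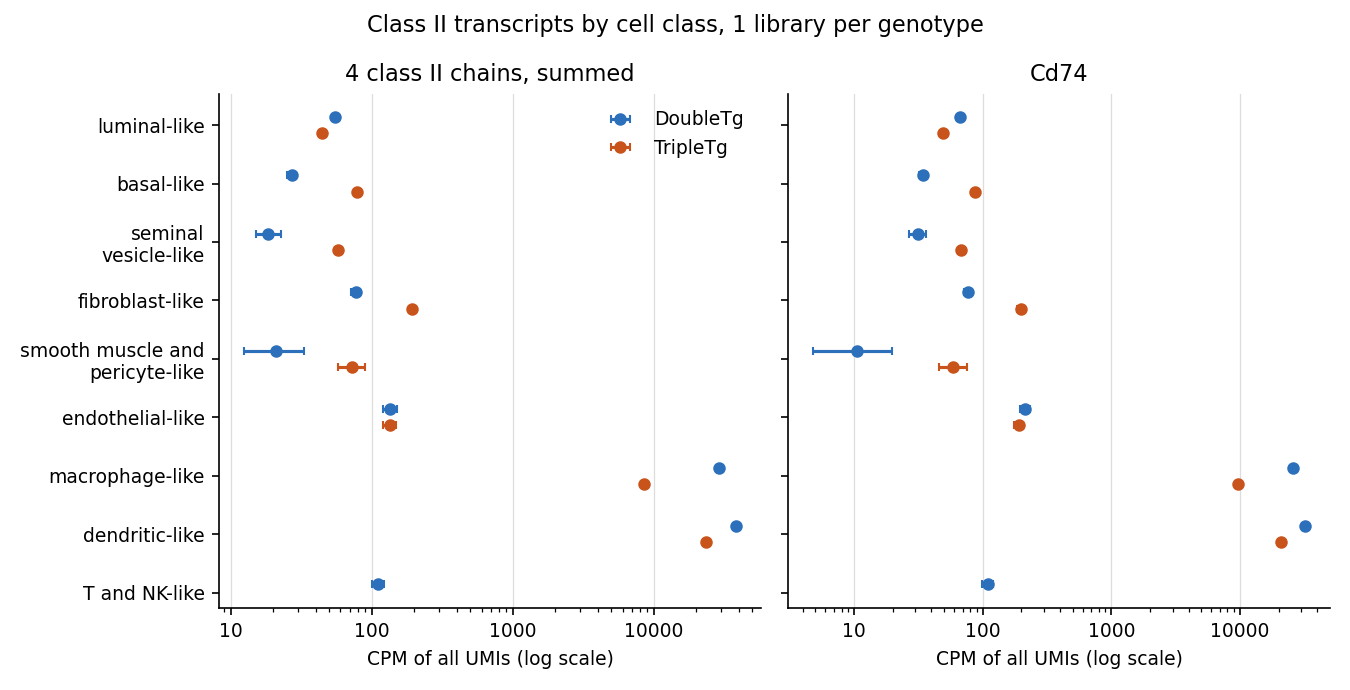
Levels in CPM (log scale, horizontal axis) of the summed class II chains (left) and of Cd74 (right) in each cell class of the DoubleTg and TripleTg libraries, with exact 95% Poisson intervals as bars. Macrophage-like and dendritic-like cells lie at or above 8482 CPM for the chains in both libraries and all the other classes below 200 CPM.

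Macrophage-like cells of TripleTg carried much less class II RNA. The chain sum was 28724 CPM in DoubleTg and 8482 CPM in TripleTg macrophage-like cells, a log2 ratio of −1.76 (−1.77 to −1.75), or −1.72 after subtraction of the epithelial-like profile. H2-Aa, the α chain of I-A, was 9990 and 3245 CPM (−1.62, −1.65 to −1.60), H2-Ab1, its β chain, 8912 and 2603 CPM (−1.78, −1.80 to −1.75), and H2-Eb1, the β chain of I-E, 9822 and 2633 CPM (−1.90, −1.92 to −1.87). The 3 chains thus differed by similar amounts. The DoubleTg class joined a cluster of 277 cells led by Ccl4 and Ccl3, with 37942 CPM, and a shallow cluster of 218 cells led by C1qa, with a median of only 1044.5 UMIs per cell and 12037 CPM, and both were above the TripleTg level. Per macrophage-like cell thinned to 5000 UMIs, the median was 185 class II UMIs (quartiles 105 and 255, 313 cells) in DoubleTg and 34.5 (1 and 112, 452 cells) in TripleTg. Cells with no class II UMI made up 0 of 313 cells, which allows a share of up to 0.958%, and 18.6% of 452 cells, so only the TripleTg cells reached down to none. Thinning left out 171 of the 218 cells of the shallow DoubleTg cluster and kept 47, so the DoubleTg median and share rest mostly on the deeper cluster with the higher class II level.

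In dendritic-like cells, led by Ccr7 in both libraries, the difference was smaller. The chain sum was 38013 and 23400 CPM, a log2 ratio of −0.70 (−0.73 to −0.67), or −0.56 after subtraction and −0.99 with TMM scaling. In TripleTg the dendritic-like cells stood 1.46 above the macrophage-like cells on the log2 scale (1.44 to 1.49), and in DoubleTg 0.40 above them (0.39 to 0.42). The order of the classes was thus the same, with a wider gap in TripleTg.

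The genes of class II peptide loading did not differ as one block. Cd74, the invariant chain, followed the chains, with 26065 and 9571 CPM in macrophage-like cells (−1.45, −1.46 to −1.43) and 31854 and 20962 CPM in dendritic-like cells (−0.60, −0.63 to −0.58). H2-DMa was 275 and 188 CPM in macrophage-like cells (−0.55, −0.66 to −0.44) and 420 and 411 CPM in dendritic-like cells (−0.03, −0.24 to 0.18). H2-DMb1 was 223 and 160 CPM in macrophage-like cells (−0.47, −0.60 to −0.35), but 144 and 300 CPM in dendritic-like cells (1.06, 0.78 to 1.34, or 0.77 with TMM scaling). Its paralogue H2-DMb2 was 182 and 115 CPM in dendritic-like cells (−0.66, −1.05 to −0.29) and 19.1 and 9.45 CPM in macrophage-like cells (−1.01, −1.50 to −0.54). The exchange factor H2-DM was thus less different between the macrophage-like cells than the chains it serves.

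H2-Oa and H2-Ob, which form the inhibitor of H2-DM, were read mainly in dendritic-like cells. H2-Oa was 230 and 159 CPM there (−0.54, −0.87 to −0.22) and 24.4 and 4.87 CPM in macrophage-like cells (−2.32, −2.93 to −1.75). H2-Ob was 86.6 and 70.6 CPM in dendritic-like cells (−0.29, −0.81 to 0.19) and 13.7 and 5.03 CPM in macrophage-like cells (−1.45, −2.09 to −0.83). Ciita, the class II transactivator, was 17.3 CPM (87 UMIs) in DoubleTg and 4.11 CPM (27 UMIs) in TripleTg macrophage-like cells (−2.07, −2.75 to −1.43), and 21.2 and 17.3 CPM in dendritic-like cells (−0.30, −1.42 to 0.70). The difference in Ciita between the macrophage-like cells was of the same order as that of the chains, and in dendritic-like cells its interval included 0.

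Of the other pathway genes, 2 of 27 were at least 2-fold lower and 3 at least 2-fold higher in TripleTg macrophage-like cells, shares near the 5.98% and 7.97% of all features. The lower ones were the co-stimulatory molecules Cd86 (579 and 230 CPM, −1.33, −1.42 to −1.24) and Cd40 (93.9 and 21.6 CPM, −2.12, −2.40 to −1.84). March1, a ubiquitin ligase that removes class II and Cd86 from the surface, was higher, with 6.35 and 13.0 CPM (1.03, 0.43 to 1.66), as were Cd80 (3.97 and 10.1 CPM, 1.34, 0.60 to 2.14) and Cd4 (0.794 and 15.5 CPM, 4.29, 2.89 to 6.19). Ctss, the protease cathepsin S that degrades the invariant chain, was 2167 and 3021 CPM (0.48, 0.45 to 0.51). Ifng, which encodes the interferon that induces Ciita outside the professional cells, was 10.3 CPM in DoubleTg immune-like cells and had no UMI in the TripleTg immune-like cells (which allows up to 0.417 CPM), from which the mixed T and NK cluster is missing. The classes as named do not therefore compare T cells between the libraries.

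Low class II counts outside the professional cells were described against free immune RNA. In epithelial-like cells the chain sum was 51.0 CPM in DoubleTg and 51.1 CPM in TripleTg, a log2 ratio of 0.00 (−0.03 to 0.04), or 0.178% and 0.603% of the level in macrophage-like cells. The ratio was 0.13 in cells thinned to 5000 UMIs. In cells with at most 1 UMI of 8 immune genes it was 0.72, and with Cd52, which the epithelium also expressed, taken off that list it was −0.0051. The macrophage genes C1qa, C1qb and C1qc, which epithelium lacks, stood in the same cells at 0.0469% and 0.136% of their macrophage-like level. In fibroblast-like cells the chain sum was 77.0 and 194 CPM (1.33, 1.19 to 1.47), or 0.268% and 2.29% of the macrophage-like level, with the C1q genes at 0.222% and 0.886%. In basal-like cells it was 27.1 and 78.8 CPM (1.54, 1.42 to 1.66). The higher class II level of TripleTg basal-like and fibroblast-like cells went with a higher level of the immune genes without Cd52 in the same cells, whose sum was 6.77 and 41.0 CPM in basal-like and 35.7 and 197 CPM in fibroblast-like cells. The part of free RNA in these differences was not tested beyond these values.

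In the DoubleTg epithelium, class II RNA was concentrated in few cells. Among 4792 thinned luminal-like cells, 54 had at least 5 class II UMIs and held 56.5% of all class II UMIs of the class, and Cd74 stood at 3422 CPM in these 54 cells. An immune UMI, here and below counted without Cd52, was found in 20.4% of them (10.6 to 33.5%), against 1.75% of the 4283 luminal-like cells without class II UMIs. Their median Scrublet doublet score was 0.0555, against 0.0445 in the cells without, and Ciita had 0 UMIs in them, which allows up to 11.1 CPM. In TripleTg only 15 of 4765 luminal-like cells had at least 5 class II UMIs, with 9.15% of the total, and an immune UMI was found in 26.7% of these and in 9.89% of the cells with none. Per UMI of Tyrobp, an immune adaptor gene, there were 64.5 class II UMIs in DoubleTg luminal-like cells, against 20.6 in macrophage-like cells and 37.5 in dendritic-like cells of that library. Other immune genes put the luminal-like value between the macrophage-like and dendritic-like ones. It was 66.0 (44.7 and 73.0) per Laptm5 UMI, 47.5 (17.5 and 83.4) per Fcer1g UMI and 9.14 (2.88 and 17.4) per immune UMI. In TripleTg the ratio per Tyrobp UMI was 12.2 in luminal-like cells, between the 3.90 of macrophage-like and the 25.6 of dendritic-like cells. The 54 cells held 782 class II UMIs and 39 immune UMIs, where dendritic-like cells of that library had 17.4 class II UMIs per immune UMI and macrophage-like cells 2.88. The part of doublets and of free RNA in these cells was not tested beyond these values.

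The share of epithelial-like cells with a class II UMI was 10.3% in DoubleTg and 19.7% in TripleTg after thinning to 5000 UMIs. The 1% of cells with the most class II UMIs held 52.5% of them in DoubleTg and 23.3% in TripleTg. For B2m the shares were 92.8% and 69.6% thinned and 98.2% and 94.9% unthinned. Thinning left out 369 DoubleTg and 281 TripleTg epithelial-like cells with fewer UMIs, and no order was read from these shares.

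The genes whose levels across clusters were most like the class I sum were named by rank. By Pearson correlation of log2(CPM + 1) over 27 DoubleTg clusters, Psmb8 (r = 0.85), Tmem140 (0.80), Ubald2 (0.79) and Psmb9 (0.77) ranked highest among 6394 features, and over 26 TripleTg clusters Psmb8 (0.93), Psmb10 (0.88), Psmb9 (0.87), Trim30a (0.85) and Dusp3 (0.84) among 6200. B2m followed the heavy chains less closely, at 0.63 and 0.65, and was itself most like Plac8 in DoubleTg (0.85) and Trim30a in TripleTg (0.82). For the class II sum the leading genes were Spi1 (0.95), Plbd1 (0.95) and Cd86 (0.94) in DoubleTg and Cfp (0.96), Cd86 (0.95) and Ly86 (0.95) in TripleTg. Within the members, Cd74 (0.99 in both) and Ciita (0.92 and 0.88) tracked the class II chains, whereas Nlrc5 tracked the class I sum at 0.56 and 0.60. The clusters of a library share its depth and free RNA, so these correlations describe the libraries only.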

How the data were processed

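The deposited files give raw UMI counts by gene and cell. The authors had produced them with Cell Ranger on mm10 extended by the transgenes. The submitters' processing notes give Cell Ranger 6.0.2, and the header of the DoubleTg matrix gives 6.1.1. The DoubleTg matrix held slightly more barcodes than the study states and the stated limits left more cells than it kept, whereas no TripleTg cell was removed by them. Kept cells had more than 200 and fewer than 7000 genes, with less than 15% of UMIs from mitochondrial genes.

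Each library was clustered on its own (scanpy 1.11.5, 2000 variable genes without the members, 20 components, Leiden resolution 1), and clusters were named from fixed markers. Some naming limits were set after the clusters had been seen. UMIs were summed per library and class and given as counts per 1000000 (CPM), with exact Poisson intervals for levels, exact (Clopper-Pearson) intervals for shares and conditional exact binomial intervals for log2 ratios, all 95%. Where a count was 0, the value it is said to allow is that of 3 UMIs, or of 3 cells for a share, and not an exact limit. A ratio was counted where either library reached 10 CPM, and past 2-fold replaced a test, since each genotype had 1 library. Every member with at least 20 CPM in a class was named. Scrublet scores were computed and no cell was removed by them. The script for ratios was tested on simulated data. Alternatives were cells thinned to 5000 UMIs, edgeR 4.0.16 TMM factors, resolution 0.5, a minimum of 1 CPM and cells with at most 1 UMI of 8 immune genes. TMM factors in single classes, leaving out high doublet scores or T and NK-like cells, taking Cd52 off the immune genes and subtracting the epithelial-like profile were added after seeing the data. The members and gene lists were chosen with earlier results of these data known. Reads were not assigned to strain alleles, and H2-L and H2-Ea were not used here.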

Additional observations from a re-analysis of the deposited data

Results flagged for a closer look

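Class II transcripts differed between the libraries in opposite directions in different compartments. The log2 ratio of the class II chain sum, TripleTg over DoubleTg, was 0.96 (0.84 to 1.07) in all stromal-like cells and −1.04 (−1.05 to −1.03) in immune-like cells. Without the T and NK-like cells, which were named only in DoubleTg, the ratio in immune-like cells was −1.67. For Cd74 it was −0.12 (−0.16 to −0.09) in epithelial-like, 0.88 (0.77 to 0.99) in stromal-like and −0.75 (−0.77 to −0.74) in immune-like cells. With 1 library per genotype these differences between compartments were not tested. The stromal classes were not alike, with 1.33 (1.19 to 1.47) in fibroblast-like, 1.79 (1.04 to 2.61) in smooth muscle and pericyte-like and −0.01 (−0.24 to 0.21) in endothelial-like cells. The summed immune genes without Cd52 moved with the stromal values, from 35.7 to 197 CPM in fibroblast-like cells.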

How the results depend on the processing

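The direction of each summed level was kept under all the alternatives run, apart from the class II sum in epithelial-like cells, whose interval included 0. On the log2 scale, thinning to 5000 UMIs gave −1.08 for the class I sum in epithelial-like and −0.86 in immune-like cells, 0.13 and −0.62 for the class II sum in these, 1.23 and 1.44 for class I in immune-like over epithelial-like cells of DoubleTg and TripleTg, and 8.69 and 7.94 for class II. TMM factors gave −1.18 and −0.82 for class I in epithelial-like and stromal-like cells, and 0.86, 1.21, 8.55 and 7.45 for the contrasts of immune-like with epithelial-like cells in the same order. Leaving out the 8% highest Scrublet scores gave −1.19 and −0.69 for class I in epithelial-like and stromal-like cells, 0.16, 0.66 and −1.17 for class II in epithelial-like, stromal-like and immune-like cells, and 1.10, 1.47, 9.20 and 7.87 for the contrasts. Resolution 0.5 gave −0.72 for class I in immune-like cells, 0.10 and −0.90 for class II in epithelial-like and immune-like cells, and 1.42 and 7.63 for the TripleTg contrasts. Cells with at most 1 immune UMI, Cd52 included (5681 of 6996 DoubleTg and 1782 of 6663 TripleTg epithelial-like cells) gave −1.07 and −0.63 for class I and 0.72 and 0.60 for class II in epithelial-like and stromal-like cells, and 1.04, 1.31, 9.49 and 7.73 for the contrasts. With Cd52, which the epithelium also expressed, taken off that gene list, class II gave 0.61 in stromal-like cells and contrasts of 8.92 and 7.88. Without T and NK-like cells, class I and class II in immune-like cells were −0.57 and −1.67, and the DoubleTg contrasts 0.71 and 9.26. Subtraction of the epithelial-like profile gave −0.60 and −0.73 for class I and 1.12 and −0.999 for class II in stromal-like and immune-like cells, and 1.15, 1.63, 9.03 and 8.03 for the contrasts. At a minimum of 1 CPM, 11 of 23 members were past 2-fold in epithelial-like cells (26.5% of 12157 features; 7 members at 10 CPM) and 10 of 28 in stromal-like cells (19.1% of 13657 features; 6 members at 10 CPM). Of single members, Cd74 in epithelial-like cells turned to 0.12 and H2-Ke6 in immune-like cells to 0.34 on thinning, and B2m on subtraction to 0.085 in immune-like, 0.11 in macrophage-like and 1.27 in smooth muscle and pericyte-like cells. With TMM factors in single classes, B2m, H2-K1 and H2-T23 turned to 0.035, 0.0037 and 0.31 in seminal vesicle-like cells. The cause of these turns was not tested. The other members, run by compartment, kept their direction or had intervals that included 0. Removal by Scrublet calls was not run, since it called no TripleTg cell. No paired analysis was possible because each genotype had 1 library. Sparse genes such as Nlrc5 and Ciita have wide counting intervals, as do levels in small classes.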
